A study of Mus musculus with 24 samples.

Results

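The RNA of 10 genes that mark GABAergic interneurons was followed in the hippocampus of CBP-ifKOs and control mice kept in 2 kinds of housing. The genes were Gad1, Gad2, Slc32a1, Pvalb, Lhx6, Reln, Ndnf, Lamp5, Kit and Dlx1. They were chosen by name as genes of cells in which the Cre driver of this line does not delete CBP. Which cells of the tissue their RNA came from was not tested, and excitatory neurons may contribute to it. Each was matched to its row by Ensembl identifier, and they made up 10 of the 55471 genes counted. All 10 passed the filter on low counts in every comparison. The samples were 12 female C57BL/6 mice (C57BL/6J in the study's methods) of 3 to 6 months, with 3 mice in each of 4 groups. Control mice in standard cages (SC), CBP-ifKOs in SC, control mice in environmental enrichment (EE) and CBP-ifKOs in EE were compared. CBP-ifKOs carried floxed Crebbp alleles and CaMKIIα-creERT2, a tamoxifen-inducible Cre that acts in excitatory neurons of the forebrain, and controls were littermates without the Cre. Mice of both genotypes received tamoxifen by 5 intragastric administrations (20 mg/mL in corn oil), so that the drug was shared by all groups while the transgene was not. The comparisons ask whether interneuron transcripts change in tissue whose excitatory neurons have lost CBP, and whether enrichment changes them.

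GABAergic interneurons are the inhibitory neurons of the hippocampus. They make GABA from glutamate with the decarboxylases encoded by Gad1 and Gad2 and load it into synaptic vesicles with the transporter encoded by Slc32a1. They arise mainly from the medial and caudal ganglionic eminences (MGE and CGE) of the embryonic forebrain, where Dlx1 and, in the MGE, Lhx6 encode homeodomain transcription factors of the lineage. MGE-derived cells include those with parvalbumin or somatostatin, and CGE-derived cells include those with VIP or cholecystokinin. Neurogliaform and related cells express Reln, Ndnf, Lamp5 and Kit in varying combinations. CBP is a lysine acetyltransferase and a coactivator of CREB and other transcription factors.

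The libraries held 26874015 to 37448388 counts on genes, and the least abundant member had 505 counts in the mouse where it was lowest, so counting error was small for all 10 genes. All counts of the CBP-ifKO libraries were even numbers, whereas 54.0 to 55.1% of the nonzero counts of each control library were odd. The cause was not tested. With each read of the CBP-ifKO libraries entered 2 times, those libraries would hold 14291105 to 18724194 counts. The lowest member count would then be 264. The even counts lay only in CBP-ifKOs, so a difference in the handling of these libraries cannot be told apart from genotype. Values are given as counts per 1000000 after TMM scaling (CPM). Crebbp itself was at 69.6 to 81.9 CPM in the 6 control mice and at 44.5 to 51.6 CPM in the 6 CBP-ifKOs, and fell by 32.9% in SC and by 35.9% in EE. The choroid plexus list (7 genes, led by Ttr) summed to 1260 CPM in 1 control mouse in EE and to 35.6 to 63.9 CPM in the other 11 mice, so comparisons with control mice in EE were repeated without it. Markers of Cajal-Retzius cells, another source of Reln, summed to 5.99 to 9.94 CPM, with Lhx1, Lhx5 and Ebf2 at 0 counts in at least 1 mouse and Trp73 (80 to 143 counts), Nhlh2 (44 to 80) and Ebf3 (23 to 60) counted in every mouse. Markers of striatal projection neurons, which also use GABA, summed to 119 to 151 CPM, and their defining factor Isl1 did not exceed 1 count in any mouse. All 6 mast cell markers, which bear on Kit, fell below the filter.

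On GRCm38, 6 members lie on chromosome 2 and 2 on chromosome 5. Lamp5 (ENSMUSG00000027270, plus strand) occupies chr2:136052239-136069917. Gad1 occupies chr2:70553072-70602014, Gad2 chr2:22622205-22693874 and Slc32a1 chr2:158610767-158615748, all on the plus strand. Reads were counted on annotated exons, and the strand setting of the counting was not given. Of the exonic bases of Slc32a1, 24.9% are shared with the antisense gene Gm14205, and of those of Dlx1, 6.21% with Dlx1as. How reads on these shared bases were assigned is not known. The shares were 2.16% for Lhx6 and 1.04% for Reln. RefSeq promoter windows (GRCm38.p6) were found for 9 members, as 14 windows of 250 bases before a transcript start. The core of the cAMP response element (TGACG, either strand) was in 1 window, that of Gad2 at position -33 from the start, and in 17.8% of all 32851 windows. The full element (TGACGTCA, either strand) was in none of the members' windows and in 1.55% of all windows. A stretch upstream of Lamp5 is printed because Lamp5 was the member whose RNA fell in CBP-ifKOs. It is the 150 bases of chr2:136052089-136052238, plus strand, that precede the annotated gene, and it holds no capitals because neither motif occurs in it.
Lamp5: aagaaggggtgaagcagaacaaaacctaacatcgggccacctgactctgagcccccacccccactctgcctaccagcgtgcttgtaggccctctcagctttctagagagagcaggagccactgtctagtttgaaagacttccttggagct

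Scaled by exonic length, Gad1 had the highest level of the members, at 55.9 ± 2.80 RPKM (SD, n = 12 mice). Pvalb (29.7 ± 3.86 RPKM), which encodes a calcium-binding protein of fast-spiking cells, and Gad2 (29.6 ± 2.04 RPKM) followed and did not differ in rank, since Pvalb was above Gad2 in 6 of 12 mice. Next came Slc32a1 (17.8 ± 0.98 RPKM) and the receptor tyrosine kinase gene Kit (16.1 ± 1.19 RPKM), with Slc32a1 above Kit in 9 of 12 mice. The lower levels were those of Lamp5 (11.3 ± 2.31 RPKM), Dlx1 (6.56 ± 0.47 RPKM), Lhx6 (3.96 ± 0.35 RPKM), Reln (3.05 ± 0.30 RPKM) and Ndnf (2.48 ± 0.15 RPKM). Each of these 5 was below the one before it in all 12 mice. Over the 12 mice, Lamp5 varied most in proportion to its mean (coefficient of variation, 20.5%), Pvalb varied by 13.0%, and Gad1 by 5.02%. Within groups, the SD of log2 CPM was 0.07 for Gad1, 0.17 for Lamp5 and 0.17 for Pvalb, against a median of 0.13 over all genes tested.

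**Figure D1:**
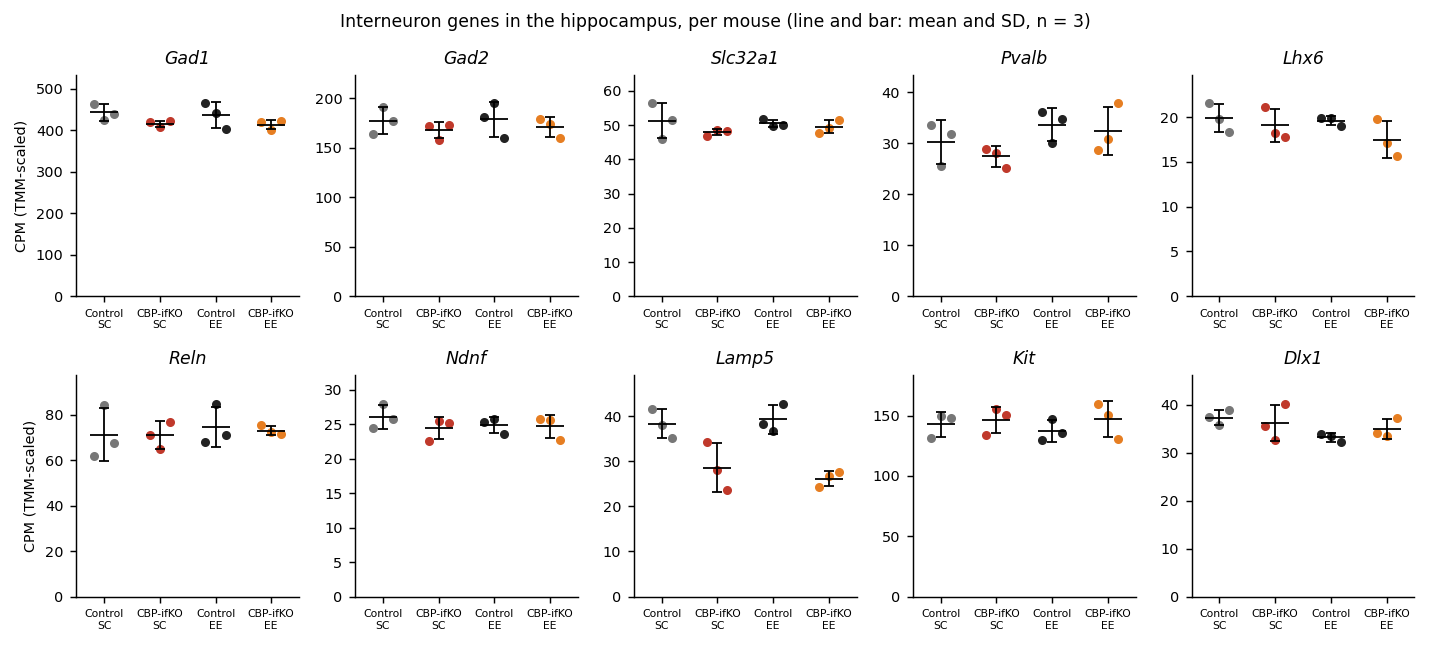
TMM-scaled CPM (vertical axes, from 0) of the 10 interneuron genes in the 4 groups (horizontal axes), with 1 point per mouse and the mean and SD of 3 mice. Lamp5 lies at 23.6 to 34.3 CPM in the 6 CBP-ifKOs and at 35.3 to 42.8 CPM in the 6 control mice, and the other 9 genes overlap between genotypes over all 12 mice.

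The genes of GABA synthesis and vesicular loading did not pass the test between genotypes. Gad1 stood at 464, 424 and 440 CPM in the control mice in SC and at 418, 407 and 421 CPM in the CBP-ifKOs in SC. All 3 CBP-ifKOs were thus below all 3 controls in SC. In EE, Gad1 was at 464, 441 and 402 CPM in the controls and at 419, 400 and 421 CPM in the CBP-ifKOs, and the groups overlapped. The Gad1 difference was -6.15% in SC (95% interval, -13.0% to 1.28%; edgeR quasi-likelihood test with Benjamini-Hochberg adjustment, adjusted p = 0.337) and -4.52% in EE (-13.3% to 5.19%; adjusted p = 0.617). Averaged over housing it was -5.63% (-10.9% to -0.00942%), with an unadjusted p of 0.0497 and an edgeR adjusted p of 0.166. For Gad2, the group means were 177 ± 13.6 and 168 ± 8.43 CPM (SD, n = 3) in control and CBP-ifKO mice in SC, and 179 ± 17.4 and 171 ± 10.3 CPM in EE. The averaged Gad2 difference was -4.81% (95% interval, -12.0% to 3.01%). Slc32a1 averaged 51.3 ± 5.15 and 48.0 ± 0.96 CPM in SC, and 50.5 ± 1.04 and 49.6 ± 1.94 CPM in EE, with an averaged difference of -4.25% (-10.7% to 2.63%). Gad2 and Slc32a1 overlapped between genotypes in both housings. In RNA of whole tissue, fewer cells of a type and less RNA per cell cannot be told apart.

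The transcription factor genes also missed the threshold. Lhx6 was at 21.5, 19.8 and 18.3 CPM in the controls and at 21.2, 18.3 and 17.8 CPM in the CBP-ifKOs in SC. In EE it was at 19.9, 19.9 and 19.1 CPM in the controls and at 19.7, 17.1 and 15.6 CPM in the CBP-ifKOs. Both pairs of groups overlapped, and the difference was -4.14% in SC (95% interval, -16.7% to 10.4%) and -10.2% in EE (-22.5% to 4.08%). Dlx1 averaged 37.3 ± 1.55 and 36.1 ± 3.80 CPM in control and CBP-ifKO mice in SC, and 33.2 ± 0.91 and 35.0 ± 2.01 CPM in EE. Its difference between genotypes was -3.07% in SC (-14.03% to 9.30%) and 5.92% in EE (-4.66% to 17.7%).

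Among the genes of interneuron subtypes, Pvalb, Reln, Ndnf and Kit overlapped between genotypes in both housings. Pvalb was at 33.5, 25.4 and 31.7 CPM in the controls and at 28.9, 28.1 and 25.1 CPM in the CBP-ifKOs in SC. Its wide spread left an interval of -22.2% to 5.34% in SC and of -17.6% to 14.03% in EE. Reln, the gene of a secreted glycoprotein of the extracellular matrix, averaged 71.2 ± 11.7 and 71.0 ± 6.04 CPM in SC and 74.6 ± 8.99 and 73.1 ± 2.09 CPM in EE. The averaged Reln difference was -1.09% (95% interval, -11.2% to 10.1%). Ndnf, which encodes a secreted neuron-derived factor, averaged 26.1 ± 1.78 and 24.5 ± 1.61 CPM in SC and 24.9 ± 1.14 and 24.7 ± 1.71 CPM in EE, an averaged difference of -3.49% (-11.0% to 4.69%). Kit was the member whose difference was above 0 in both housings, at 2.46% in SC (-7.86% to 13.9%) and 7.89% in EE (-4.55% to 21.9%).

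Lamp5 encodes a lysosome-associated membrane protein of neurons, and its level differed between genotypes. Whether its RNA came from interneurons or from other cells, among them the excitatory neurons that lost CBP, was not tested. It was at 41.7, 38.2 and 35.3 CPM in the control mice in SC and at 34.3, 28.0 and 23.6 CPM in the CBP-ifKOs in SC. In EE it was at 38.3, 36.8 and 42.8 CPM in the controls and at 24.2, 26.7 and 27.6 CPM in the CBP-ifKOs. Every CBP-ifKO was below every control mouse, within each housing and over both. In EE, Lamp5 fell by 33.1% (log2 fold change, -0.58 ± 0.08 SE; edgeR quasi-likelihood test, Benjamini-Hochberg adjusted p = 0.00314). In SC the difference was -25.5% (log2 fold change, -0.42 ± 0.12 SE; 95% interval, -37.5% to -11.1%), which missed the threshold (edgeR adjusted p = 0.0573). Without the CBP-ifKO mouse at 34.3 CPM it passed, at a log2 fold change of -0.57 (edgeR adjusted p = 0.0199). In the other 5 fits that left out a mouse it did not pass, with log2 fold changes of -0.48 to -0.30 (edgeR adjusted p = 0.0600 to 0.173). With all mice kept, it passed under 4 of 8 alternatives, among them DESeq2's Wald test (adjusted p = 0.00677) and the fit of all 12 mice (edgeR adjusted p = 0.0352). Averaged over housing, Lamp5 fell by 29.6% (log2 fold change, -0.51 ± 0.08 SE; edgeR adjusted p = 3.73e-04). The interaction with housing was -0.16 ± 0.16 SE on the log2 scale (95% interval, -0.50 to 0.17; unadjusted p = 0.310), so a difference between SC and EE was not shown. Without the control mouse with the high choroid plexus sum, the fall in EE was -0.60 on the log2 scale (edgeR adjusted p = 0.00442).

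**Figure D2:**
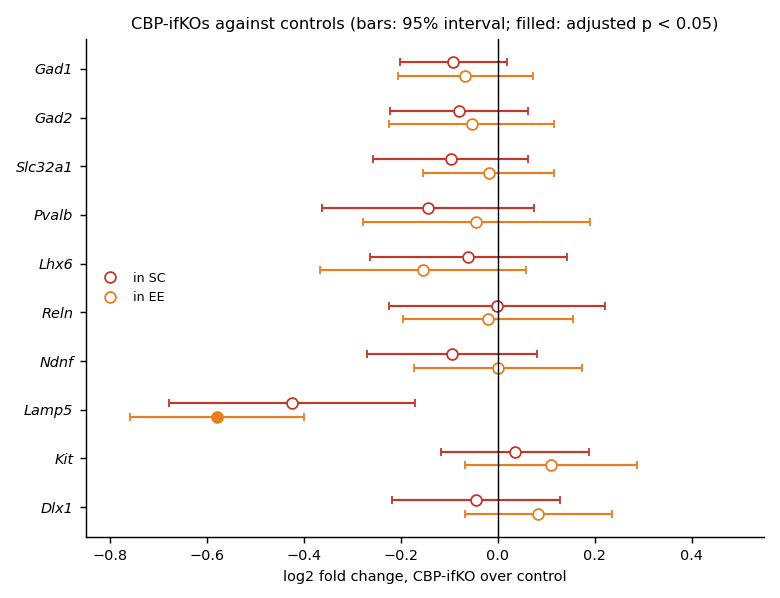
Log2 fold change of each interneuron gene in CBP-ifKOs over control mice (horizontal axis, bars are 95% intervals) in SC and in EE, 3 against 3 mice each, with filled points at an adjusted p below 0.05. Lamp5 lies at -0.42 in SC and at -0.58 in EE with intervals below 0, and the intervals of the other 9 genes include 0.

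In counts, 0 of 10 members passed the test between genotypes in SC, where 5.52% of 17532 genes did. In EE 1 of 10 passed, Lamp5, against 4.57% of 17625 genes, and averaged over housing the count was again 1 of 10, against 16.9% of 18251 genes. With 10 genes, counts of 0 and 1 are near these shares. Groups did not overlap for 2 members in SC, Gad1 and Lamp5 (25.9% of all genes), for 1 in EE (25.3%) and for 1 over both housings (8.56%). The median log2 difference of the members was -0.09 in SC and -0.03 in EE, where the median of all genes was -0.002 and 0.01. In both housings 7 of the 10 lay below 0, as did 34.7% of the 17250 genes tested in both, with 1 above 0 in both and 2 on opposite sides. Relative to each of the other members, Lamp5 was lower in CBP-ifKOs by a log2 ratio of between -0.58 (to Kit) and -0.39 (to Lhx6). In EE all 3 CBP-ifKOs lay below all 3 controls in each of these 9 ratios. In SC this held for 2 of the 9, those to Gad2 and Lhx6, and in the other 7 ratios 2 of 3 CBP-ifKOs lay below all 3 controls. The ratios were formed after the values of Lamp5 had been seen and are given without a test.

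No member passed the test between EE and SC. In control mice 0 of 10 members passed, as did 0% of 18251 genes with edgeR, while 1 member had an unadjusted p below 0.05, against 4.21% of all genes. DESeq2 called 15 genes in this comparison, none of them a member. In CBP-ifKOs 0 of 10 passed, against 0.011% of all genes, and 1 had an unadjusted p below 0.05 (8.59% of all genes). Averaged over genotype 0 of 10 passed, against 0.164%, and 1 had an unadjusted p below 0.05 (9.44%). DESeq2 called 0 members in both. The member with the largest averaged housing difference was Pvalb. It was at 36.0, 30.0 and 34.8 CPM in control mice in EE and at 28.7, 30.8 and 37.8 CPM in CBP-ifKOs in EE. Compared with the SC values above, the groups overlapped in both genotypes. The Pvalb difference between EE and SC was 11.3% in control mice (95% interval, -5.95% to 31.7%), 18.4% in CBP-ifKOs (0.33% to 39.8%) and 14.8% on average (2.01% to 29.2%; unadjusted p = 0.0249; edgeR adjusted p = 0.446).

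Dlx1 was the other gene with an unadjusted p below 0.05. It was at 37.3, 35.8 and 38.9 CPM in control mice in SC and at 34.0, 33.5 and 32.2 CPM in control mice in EE. These groups did not overlap, as was the case for 9.11% of all genes, and the difference was -11.1% (95% interval, -20.5% to -0.57%; unadjusted p = 0.0406; edgeR adjusted p = 0.999). In CBP-ifKOs, Dlx1 was at 35.6, 32.7 and 40.2 CPM in SC and at 34.2, 33.5 and 37.2 CPM in EE, and the groups overlapped, as did those of the other 9 members (15.9% of all genes did not). For Gad1 the averaged housing difference was -1.06% (-6.62% to 4.84%), for Gad2 1.29% (-6.40% to 9.61%) and for Slc32a1 0.89% (-5.88% to 8.15%). The interaction of genotype and housing passed for 0 of 10 members and 0% of 18251 genes with edgeR, and no member but 3.15% of all genes had an unadjusted p below 0.05. DESeq2 called 0 genes.

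**Figure D3:**
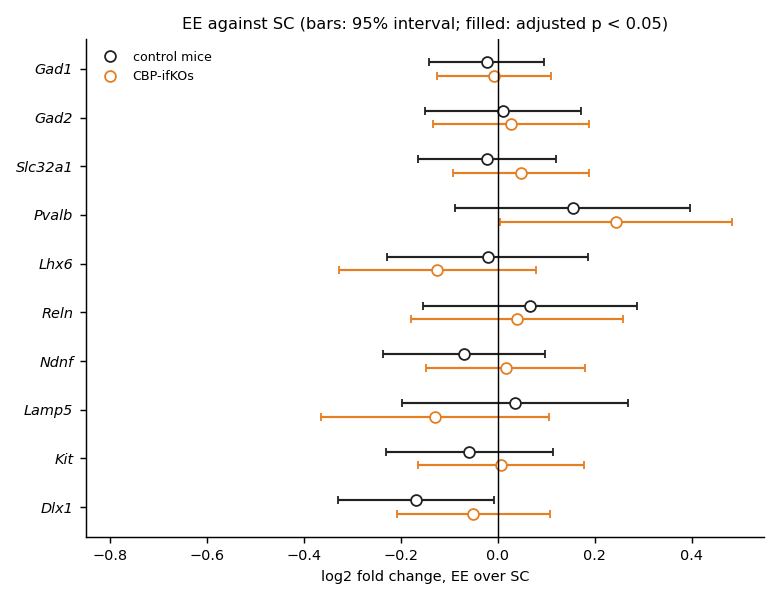
Log2 fold change of each interneuron gene in EE over SC (horizontal axis, bars are 95% intervals) in control mice and in CBP-ifKOs, 3 against 3 mice each, with filled points at an adjusted p below 0.05. All points are open, and the intervals include 0 except those of Dlx1 in control mice and Pvalb in CBP-ifKOs.

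Other genes of the interneuron and GABA system were taken from lists and are counted in the comparison averaged over housing, where 10.3% of all genes were called lower and 6.64% higher. Of 8 genes of GABA uptake and breakdown, 0 fell and 1 rose. The riser was Aldh5a1, which encodes succinic semialdehyde dehydrogenase (log2 fold change, 0.13 ± 0.04 SE; edgeR adjusted p = 0.0356), a call kept in 3 of the 12 fits that left out a mouse. The astrocytic GABA transporter gene Slc6a11 (-0.03 ± 0.04) and the GABA transaminase gene Abat (-0.07 ± 0.04) did not pass. Of 15 further transcription factor genes, 1 fell, Id2 (-0.24 ± 0.06; edgeR adjusted p = 0.0152), which is also transcribed outside interneurons. The medians of these lists were 0.03 and -0.07, beside a median of 0.003 over all genes.

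Markers of MGE- and CGE-derived subtypes formed the next lists. Of 16 MGE-derived markers 5 fell and 0 rose, and the median log2 difference was -0.17. Nos1, the gene of neuronal nitric oxide synthase, was at 144, 173 and 146 CPM in control mice and at 116, 119 and 109 CPM in CBP-ifKOs in SC. In EE, Nos1 was at 112, 139 and 127 CPM in control mice and at 84.5, 88.7 and 73.0 CPM in CBP-ifKOs. It fell in SC (-0.43 ± 0.07 SE; edgeR adjusted p = 0.00705) and in EE (-0.61 ± 0.09; edgeR adjusted p = 0.00421), with no overlap. The somatostatin gene Sst was at 176, 144 and 181 CPM in control mice and at 122, 130 and 141 CPM in CBP-ifKOs in SC. In EE, Sst was at 188, 152 and 199 CPM and at 150, 140 and 143 CPM. Sst fell in SC (-0.35 ± 0.08; edgeR adjusted p = 0.0324), a call kept in 1 of the 6 fits that left out a mouse, and was at -0.30 ± 0.09 in EE (edgeR adjusted p = 0.0873), where it passed under 3 of 8 alternatives that kept all mice. The averaged fall of Sst was -0.33 ± 0.07 (edgeR adjusted p = 0.00322). Crhbp, the gene of a binding protein for corticotropin-releasing hormone, fell by 0.49 on the log2 scale, Elfn1, which encodes a postsynaptic adhesion protein of somatostatin cells, by 0.30, and the potassium channel gene Kcnc2 by 0.12. The call of Kcnc2 (edgeR adjusted p = 0.0383) was kept in 2 of the 12 fits that left out a mouse, and those of the other 4 in all 12. The neuropeptide Y gene Npy was at -0.19 ± 0.07 (edgeR adjusted p = 0.0702) and passed under 4 of 7 alternatives that kept all mice.

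Of 16 CGE-derived markers 6 fell and 1 rose, with a median of -0.18. Those that fell were the proenkephalin gene Penk (-0.88 ± 0.07 SE), the synaptic vesicle gene Sv2c (-0.87 ± 0.08), the calretinin gene Calb2 (-0.54 ± 0.11), the cholecystokinin gene Cck (-0.45 ± 0.06), the neuropeptide Y receptor gene Npy2r (-0.27 ± 0.07) and the serotonin receptor gene Htr3a (-0.23 ± 0.06). The edgeR adjusted p-values of these 6 ran from 8.92e-07 for Penk to 0.0150 for Htr3a. The call of Htr3a was lost when CBP-ifKO counts were halved and libraries thinned to about the same total (edgeR adjusted p = 0.131). Over all alternatives, its log2 fold change lay between -0.26 and -0.18. Calb2 fell in SC (-0.65 ± 0.12; edgeR adjusted p = 0.00874), a call kept in 4 of the 6 fits that left out a mouse. In EE the groups overlapped and it was at -0.43 ± 0.15 (edgeR adjusted p = 0.129). There it passed under 2 of 8 alternatives that kept all mice. The interaction of Calb2 with housing was 0.21 on the log2 scale and did not pass, so a difference between SC and EE was not shown. Penk, Calb2, Cck and Npy2r are also transcribed by excitatory neurons of the hippocampal formation, as is Nos1. Vip, the gene of vasoactive intestinal peptide, was higher in CBP-ifKOs. It was at 23.9, 20.7 and 23.3 CPM in control mice and at 28.2, 24.0 and 24.5 CPM in CBP-ifKOs in SC. In EE, Vip was at 26.0, 21.6 and 24.9 CPM in control mice and at 30.3, 26.3 and 29.4 CPM in CBP-ifKOs. The CBP-ifKOs lay above the controls within each housing, in SC only narrowly (23.95 CPM in the lowest CBP-ifKO, 23.94 CPM in the highest control). Groups did not overlap for 25.9% of all genes in SC and 25.3% in EE. Vip rose on average (0.21 ± 0.06; edgeR adjusted p = 0.0361) but passed in neither housing alone, and the averaged call was kept in 5 of the 12 fits that left out a mouse.

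**Figure D4:**
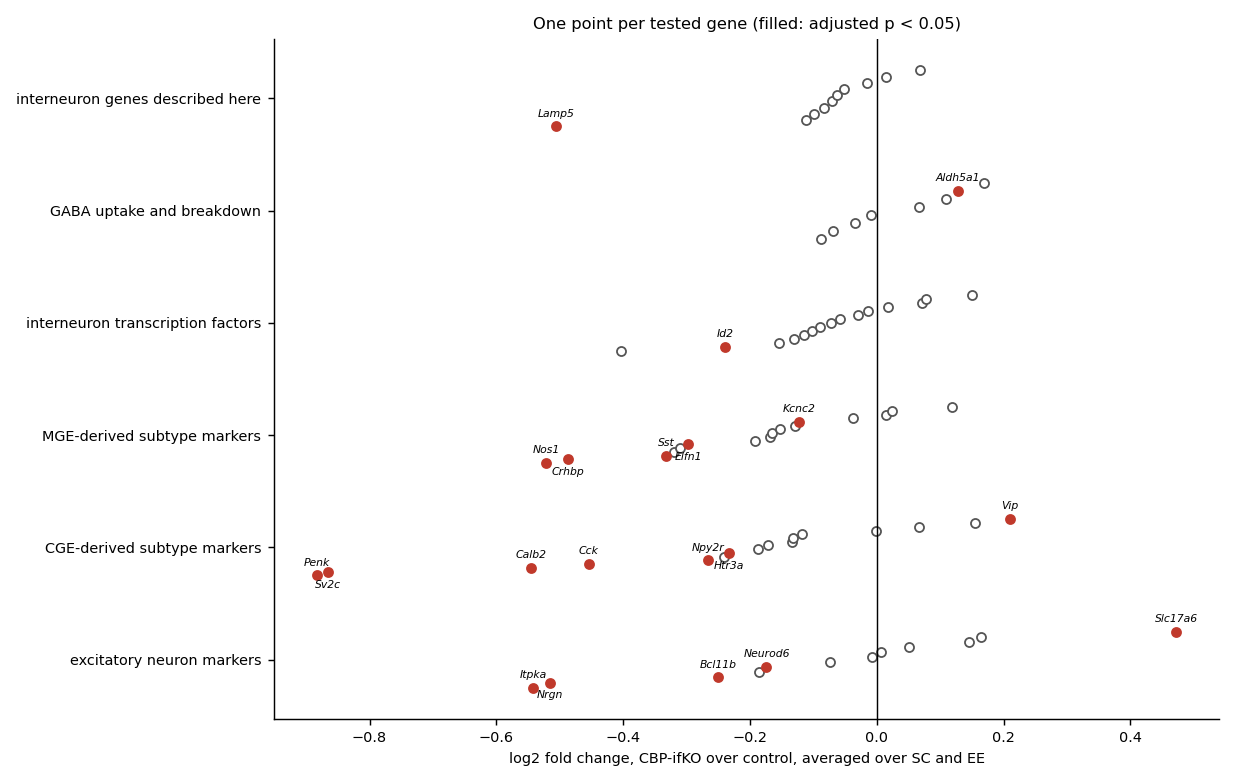
Log2 fold change in CBP-ifKOs over control mice averaged over SC and EE (horizontal axis), with 1 point per tested gene of the interneuron genes and 5 gene lists, filled at an adjusted p below 0.05. Lamp5 is at -0.51, the other 9 interneuron genes lie between -0.11 and 0.07, and the filled points reach -0.88 (Penk).

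Markers of excitatory neurons, the cells that lost CBP, also moved, with 4 of 12 lower, against 1 higher. Those lower were the calmodulin-binding gene Nrgn (-0.52 ± 0.05), the inositol trisphosphate kinase gene Itpka (-0.54 ± 0.06) and the transcription factor genes Bcl11b (-0.25 ± 0.05) and Neurod6 (-0.17 ± 0.04). The vesicular glutamate transporter gene Slc17a6 was higher (0.47 ± 0.14), a call kept in 9 of the 12 fits that left out a mouse. Their summed level was 2758 to 3225 CPM in control mice and 2659 to 2857 CPM in CBP-ifKOs in SC. In EE it was 3068 to 3324 and 2593 to 2825 CPM. Of the 8 markers of striatal projection neurons that passed the filter, 2 were lower, the phosphatase inhibitor gene Ppp1r1b (-0.43 ± 0.08) and the transcription factor gene Foxp1 (-0.19 ± 0.04). Of the 8, 3 lay above 0, the highest at 0.44. Foxp1 alone was at 63.1 to 77.8 CPM and made up much of the sum of this list. The striatal list summed to 132 to 141 CPM in control mice and 124 to 126 CPM in CBP-ifKOs in SC, and to 131 to 151 and 119 to 121 CPM in EE, with no overlap in either housing. The sums of the Cajal-Retzius, microglia, MGE-derived and CGE-derived lists were also lower in every CBP-ifKO than in every control mouse of the same housing. For single genes, groups did not overlap, in either direction, for 25.9% of all genes in SC and 25.3% in EE. Sums follow their most abundant genes and were not tested. The MGE-derived sum was 935 to 943 and 802 to 816 CPM in SC, and 918 to 923 and 775 to 799 CPM in EE. The CGE-derived sum was 827 to 850 and 678 to 709 CPM in SC, and 822 to 843 and 680 to 707 CPM in EE. The Cajal-Retzius sum was 7.72 to 9.94 CPM in control mice and 5.99 to 7.68 CPM in CBP-ifKOs in SC, and 7.13 to 8.86 and 6.05 to 6.46 CPM in EE. The microglia sum was 263 to 267 and 234 to 256 CPM in SC, and 243 to 272 and 227 to 234 CPM in EE. Of 7 astrocyte markers 2 were lower, the glutamate transporter genes Slc1a3 (-0.21 ± 0.06) and Slc1a2 (-0.15 ± 0.05). Of 6 microglia markers 2 were lower, the receptor genes Cx3cr1 (-0.17 ± 0.05) and Csf1r (-0.12 ± 0.04). The calls of Slc1a2 and Csf1r were each kept in 3 of the 12 fits that left out a mouse, and that of Cx3cr1 in 11. Of 7 oligodendrocyte lineage markers 2 were lower, Cspg4 (-0.33 ± 0.08) and Pdgfra (-0.26 ± 0.06), which mark precursor cells, and 0 of 6 endothelial genes called. Of the 4 Cajal-Retzius markers that passed the filter 1 was lower, Trp73 (-0.59 ± 0.13), and 1 without a call lay above 0 (0.27), while Reln had no call. Of the 6 choroid plexus markers that passed the filter 1 was lower, the transthyretin gene Ttr (-2.99 ± 0.88; edgeR adjusted p = 0.0283), which was at -0.61 without the control mouse with the high sum (edgeR adjusted p = 0.278). In SC, where that mouse did not enter, Ttr was at 26.1, 21.5 and 20.7 CPM in control mice and at 7.17, 6.02 and 7.73 CPM in CBP-ifKOs. It fell there by 1.70 on the log2 scale (edgeR adjusted p = 2.20e-05), a call kept in all 6 fits that left out a mouse but not in the fit of all 12 mice, which includes the mouse with the high sum (edgeR adjusted p = 0.521). The part of these cell types in the differences of Lamp5 and the subtype markers was not tested.

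With enrichment, 2 of 16 MGE-derived and 1 of 16 CGE-derived markers passed in the comparison averaged over genotype, where 0.164% of all genes did (30 genes, and 7 to 42 without 1 mouse). Npy was at 36.1, 28.7 and 39.2 CPM in control mice in SC and at 46.1, 43.0 and 48.6 CPM in control mice in EE. In CBP-ifKOs, Npy was at 28.3, 29.4 and 31.9 CPM in SC and at 37.9, 39.8 and 44.6 CPM in EE. The mice in EE were above those in SC in each genotype, and Npy rose by 0.43 ± 0.07 SE on the log2 scale (edgeR adjusted p = 0.0190). Penk rose by 0.45 ± 0.07 (edgeR adjusted p = 0.0149) and Nos1 fell (-0.39 ± 0.06; edgeR adjusted p = 0.0190). The calls of Npy and Nos1 were each kept in 8 of the 12 fits that left out a mouse, and that of Penk in 10. Within a genotype none of the 3 passed, with edgeR adjusted p-values in control mice and CBP-ifKOs of 0.653 and 0.194 for Npy, 0.999 and 0.0933 for Penk, and 0.973 and 0.121 for Nos1. Of 7 alternatives that kept all mice, Npy and Nos1 each passed under 3 in CBP-ifKOs and under 1 in control mice. Sst (0.12 ± 0.07), Vip (0.13 ± 0.06) and Cck (0.06 ± 0.06) did not pass.

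**Figure D5:**
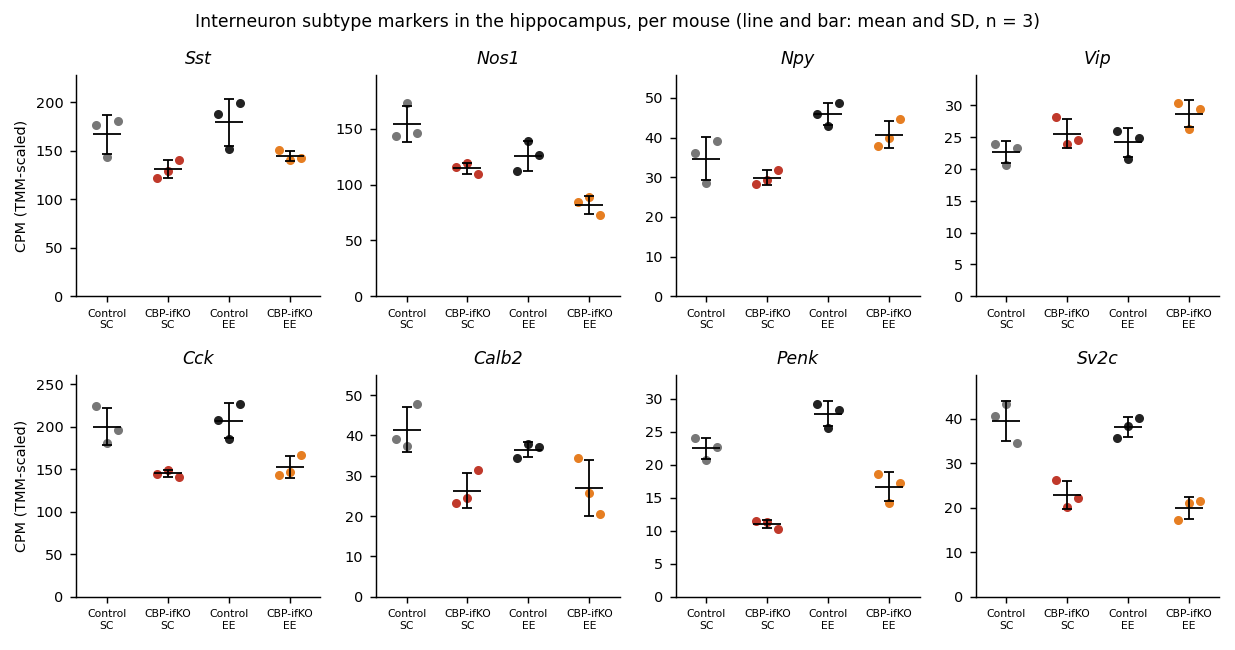
TMM-scaled CPM (vertical axes, from 0) of 8 interneuron subtype markers in the 4 groups (horizontal axes), with 1 point per mouse and the mean and SD of 3 mice. Sst, Nos1, Cck and Sv2c are lower in CBP-ifKOs than in control mice within both housings, Vip is higher (narrowly so in SC), and Npy is higher in EE than in SC in both genotypes.

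Members were also compared with each other over the 12 mice, after the group means had been removed. Of the 45 pairs, 20 correlated positively, and the median r was -0.03. Ndnf and Kit had the highest value (Pearson's r = 0.85, exact permutation of mice within groups, p = 0.0131, adjusted p = 0.143; Spearman's rho = 0.85, p = 0.00540, adjusted p = 0.116). Without the 2 mice farthest from the median, r was 0.72. The lowest was that of Pvalb and Reln (r = -0.82, exact permutation p = 0.00309, adjusted p = 0.139; rho = -0.73, p = 0.0193, adjusted p = 0.145), with r at -0.75 without 2 mice. None of the 45 pairs passed after adjustment. Pvalb was also negatively correlated with Ndnf (r = -0.81) and Kit (r = -0.81). The genes whose pattern over these 12 mice was most like a member's were, of 14994, Anapc10 for Lamp5 (r = 0.95), Kcnk1 for Pvalb (r = 0.97), Sox5 for Gad2 (r = 0.96) and Armcx1 for Gad1 (r = 0.95). These were the highest of many values and are given without a test.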

How the data were processed

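Total RNA of the hippocampus was sequenced as single-end reads of 50 bases, in 2 runs per mouse. The count columns are named as merged, and whether both runs of each CBP-ifKO entered its counts was not tested. Per the labels and methods, the authors trimmed reads with Trim Galore 0.6.4, aligned them with STAR 2.6.1 to mm10 (GRCm38) and counted them on exons with Rsubread. The authors deposited unnormalized counts and, as another column, the exonic length of each gene in bases. Sample titles gave the groups, and each mouse was 1 replicate.

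Counts were tested with edgeR 4.0.16 (R 4.3.3) by its quasi-likelihood F test after filterByExpr and TMM scaling, with Benjamini-Hochberg adjustment over all genes tested and a threshold of 0.05. Genotype in SC and in EE was fitted on the 6 mice of that housing, and other contrasts on all 12 mice with 1 term per group. RPKM are CPM divided by the deposited length, and log2 CPM for correlations used a prior count of 2. Percent changes are fitted fold changes. The steps were tested on simulated data.

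The members and gene lists were chosen with earlier results of these data known. Beyond the members, the genes named were Crebbp, Sst, Npy, Vip, Cck, Calb2, Nos1, Slc6a11, Abat, up to 4 called genes per list, comparison and direction with the smallest p, and the 3 genes most like each member, of which the first is printed for 4 members. Npy2r, Htr3a, Kcnc2 and the markers named to check cell types were added after their values were seen. Lists were counted and not tested. One other gene that the rule names is not reported here. Alternatives were DESeq2 1.42.0, its size factors, 2 other filters on low counts, CBP-ifKO counts halved, the same with libraries thinned, a replicate block, a fit of all mice, and leaving out each mouse.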

Additional observations from a re-analysis of the deposited data

How the results depend on the processing

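The number of members called was the same under every alternative for genotype in EE (1), genotype averaged over housing (1), the 3 housing comparisons (0) and the interaction (0), and leaving out each mouse in turn kept these numbers. For genotype in SC, 0 members passed, and Lamp5 made the number 1 with DESeq2's Wald test (adjusted p = 0.00677), with no filter on low counts (edgeR adjusted p = 2.73e-04), with a replicate block (edgeR adjusted p = 0.00675) and in the fit of all 12 mice (edgeR adjusted p = 0.0352). Leaving out each mouse in turn gave 0 to 1 there, with Lamp5 between -0.57 and -0.30 on the log2 scale. In EE the range of Lamp5 was -0.63 to -0.51 over 14 alternatives. Of 1230 member values under alternatives, 1225 stayed on their side of the threshold, 5 moved past it, all of Lamp5 in SC, and 0 lost a call. Values that passed in neither fit changed sign in 83 cases. Halving the CBP-ifKO counts gave -0.43 for Lamp5 in SC and -0.59 in EE. The replicate block changed no other call of a member. Among the subtype markers refitted under alternatives it added Sst for genotype in EE (edgeR adjusted p = 0.0338), Npy for genotype averaged over housing (edgeR adjusted p = 0.0205), and Nos1 (edgeR adjusted p = 0.0213) and Npy (edgeR adjusted p = 0.0395) for housing in CBP-ifKOs. Halving with thinning ended the averaged genotype calls of Htr3a, Aldh5a1, Slc1a2 and Csf1r, the calls of Elfn1 and Trp73 in EE, and that of Penk for housing averaged over genotype (edgeR adjusted p = 0.0502). The fold changes behind these lost calls kept their sign under every alternative, as with Aldh5a1 (0.11 to 0.15) and Csf1r (-0.14 to -0.11). The averaged calls of Aldh5a1, Slc1a2 and Csf1r were each kept under 5 of 7 alternatives that kept all mice. Over all genes, the number called for genotype in SC (968) was 1512 with no filter and 399 to 1908 without 1 mouse, and in EE (805) it was 1296 with DESeq2, 1677 with no filter, 1293 in the fit of all mice and 285 to 1016 without 1 mouse. For housing averaged over genotype (30) it was 158 with DESeq2, 334 with no filter, 48 with the replicate block and 7 to 42 without 1 mouse. For housing in CBP-ifKOs (2) it was 54 with DESeq2, 247 with no filter, 17 with the block, 0 with halved counts and 0 to 10 without 1 mouse. For housing in control mice (0) it was 15 with DESeq2, 145 with no filter and 0 to 5 without 1 mouse, and for the interaction (0) 110 with no filter. The causes were not tested. Same-numbered mice correlated by between -0.05 and 0.30, under 0.1 for some pairs in each comparison, so the numbers were not taken as pairing. With 3 mice per group, the printed intervals give the precision of the differences. The edgeR p-values set each difference against the spread between mice, which the fit estimated with information shared across genes.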
